A study of Mus musculus with 11 samples.

Results

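The insulin and insulin-like growth factor (IGF) axis genes described here were 10 of the 37991 genes in the expression table: Igfbp2, Igfbp3, Igfbp4, Igfbp5, Igfbp6, Igfbp7, Igf1r, Insr, Irs1 and Irs2. They were chosen by symbol. All 10 were found, and 9 passed the filter on low values; Igfbp6 did not. RNA had been sequenced from cultures of C57BL/6J mouse neural stem cells taken from frontal cortex at embryonic day 14.5. The NSC group (3 libraries) was sampled at day 0 in proliferation medium. The other cultures had spent 4 days in a differentiation medium, each with 2 mM GlutaMAX. The Astrocyte group (3 libraries) was in DMEM containing 1% fetal bovine serum and 1% N-2, and the Neuron group (3 libraries) in Neurobasal containing 2% B-27. The Oligodendrocyte group (2 libraries) was in the medium of the Neuron group plus 30 ng/mL of T3, the active thyroid hormone. Oligodendrocyte against Neuron is therefore a comparison of cultures whose stated media differ in added T3 alone. Below, the words with T3 stand for this added T3. No culture stayed in proliferation medium to day 4, so the change of medium and the time in culture cannot be told apart. The design text calls the replicates biological and does not say whether they came from separate embryos or dissections, so p-values measure only the spread between these libraries, which may be partly technical.

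Insulin, IGF1 and IGF2 are secreted ligands that act through the insulin receptor and the IGF1 receptor, a pair of related receptor tyrosine kinases. The activated receptors phosphorylate the docking proteins IRS1 and IRS2, which recruit PI3-kinase and so switch on AKT, and AKT in turn keeps the FOXO transcription factors out of the nucleus. The IGF-binding proteins are secreted and hold IGFs outside the cell, which can prolong, deliver or block the ligand's action. In the developing cortex the axis is known for supporting the proliferation and survival of neural progenitors and, later, the maturation of glia. N-2 and B-27 are supplements that contain insulin.

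The group names stand for the medium and not for a single cell type. Summed over 6 proliferation markers, the level was 2489 to 2536 CPM (read counts scaled to the size of the library) in the NSC libraries and 114.6 to 174.3 CPM in the day 4 libraries. The 8 astrocyte markers summed to 12060 to 13560 CPM in the Astrocyte group, 7990 to 8696 CPM in the Neuron group and 2362 to 2639 CPM in the Oligodendrocyte group. The 8 markers of mature oligodendrocytes summed to 2334 to 2502 CPM in the Neuron group and 2269 to 2555 CPM in the Oligodendrocyte group. The 8 neuron markers summed to 926.8 to 1215 CPM in the Neuron group, 865.4 to 955.8 in NSC, 782.6 to 820 in Astrocyte and 798.8 to 807.5 in Oligodendrocyte. The Neuron range overlapped that of NSC and lay above those of the other media. Of the 7 neuron markers tested, 6 were called higher than in NSC in Neuron, 5 in Astrocyte and 4 in Oligodendrocyte. The shares of all genes called higher were 43.5%, 48.0% and 48.1%. In Neuron, all 8 astrocyte markers and all 8 markers of mature oligodendrocytes were also called higher than in NSC. In Astrocyte 7 and 8 of them were called higher. In Oligodendrocyte 6 and 8 were called higher, and 1 astrocyte marker was called lower. In such bulk samples, fewer cells of a type and less RNA per cell cannot be told apart. Depth, estimated from the spacing of the low CPM values, was 49.3 to 66.2 M reads per library, so that 1 read was worth 0.0151 to 0.0203 CPM. Within 3 groups 1 library stood apart: in NSC replicate 3, Astrocyte replicate 3 and Neuron replicate 2, genes with long exonic sequence were low relative to the rest of their own group, with slopes of -0.0581, -0.0577 and -0.12 log2 units per doubling of length. The values with and without these libraries are given where a result rests on them.

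The 250 bases upstream of the annotated start are shown for 8 of the genes. The reasons were that the binding proteins moved in opposite directions in the same cultures, and that Irs1 and Igf1r differed between the media with and without added T3. The sequences are from RefSeq, build GRCm38.p6, on the strand of the gene, 5′ to 3′. RefSeq's table gives Igfbp2 a second start, which is not shown, and Igfbp6 has an entry that is not shown. No entry was found there for Insr, so no Insr window was searched. Capitals mark matches, on either strand, to 6 motifs. They were the TATA box, searched as TATAAA, and the GC box to which SP1 binds, searched as GGGCGG. The binding site of FOXO factors was searched as TGTTTAC, and the core of the insulin response element as TGTTTTG. The E-box was searched as CACGTG, and the half-site of nuclear receptors, thyroid hormone receptors among them, as AGGTCA.
Igfbp2, chr1:72824230-72824479, plus strand: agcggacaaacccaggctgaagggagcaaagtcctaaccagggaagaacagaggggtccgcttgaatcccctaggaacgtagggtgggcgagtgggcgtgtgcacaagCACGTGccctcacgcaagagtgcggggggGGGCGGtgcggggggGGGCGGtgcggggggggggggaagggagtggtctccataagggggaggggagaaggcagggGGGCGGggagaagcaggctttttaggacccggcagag
Igfbp3, chr11:7213924-7214173, minus strand: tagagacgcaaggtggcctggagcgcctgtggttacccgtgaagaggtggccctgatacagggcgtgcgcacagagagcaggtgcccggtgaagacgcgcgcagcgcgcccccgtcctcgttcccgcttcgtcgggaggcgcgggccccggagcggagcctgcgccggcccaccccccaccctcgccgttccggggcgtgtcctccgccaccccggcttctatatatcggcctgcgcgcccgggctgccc
Igfbp4, chr11:99040994-99041243, plus strand: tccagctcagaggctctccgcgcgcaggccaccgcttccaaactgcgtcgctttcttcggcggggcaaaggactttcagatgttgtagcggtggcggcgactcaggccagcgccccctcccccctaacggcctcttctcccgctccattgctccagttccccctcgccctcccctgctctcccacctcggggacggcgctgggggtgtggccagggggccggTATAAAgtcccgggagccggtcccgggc
Igfbp5, chr1:72874866-72875115, minus strand: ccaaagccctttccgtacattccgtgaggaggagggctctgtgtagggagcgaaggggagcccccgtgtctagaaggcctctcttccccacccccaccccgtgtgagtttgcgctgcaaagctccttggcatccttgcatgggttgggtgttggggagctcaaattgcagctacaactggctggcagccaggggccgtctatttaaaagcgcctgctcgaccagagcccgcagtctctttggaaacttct
Igfbp7, chr5:77408046-77408295, minus strand: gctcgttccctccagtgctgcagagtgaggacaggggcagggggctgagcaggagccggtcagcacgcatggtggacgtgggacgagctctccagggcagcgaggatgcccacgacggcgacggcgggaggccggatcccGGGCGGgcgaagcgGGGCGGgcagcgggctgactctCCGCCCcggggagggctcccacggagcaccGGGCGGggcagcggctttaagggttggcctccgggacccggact
Igf1r, chr7:67952007-67952256, plus strand: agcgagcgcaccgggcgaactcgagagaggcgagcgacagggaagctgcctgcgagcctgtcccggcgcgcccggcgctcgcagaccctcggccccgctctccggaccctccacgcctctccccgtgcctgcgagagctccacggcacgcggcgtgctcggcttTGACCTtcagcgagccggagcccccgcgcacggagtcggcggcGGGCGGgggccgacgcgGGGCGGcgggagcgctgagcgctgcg
Irs1, chr1:82291440-82291689, minus strand: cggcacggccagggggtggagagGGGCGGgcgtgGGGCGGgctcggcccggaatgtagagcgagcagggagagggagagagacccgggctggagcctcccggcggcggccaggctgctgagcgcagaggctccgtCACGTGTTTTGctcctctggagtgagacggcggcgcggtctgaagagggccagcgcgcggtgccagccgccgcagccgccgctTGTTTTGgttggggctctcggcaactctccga
Irs2, chr8:11008930-11009179, minus strand: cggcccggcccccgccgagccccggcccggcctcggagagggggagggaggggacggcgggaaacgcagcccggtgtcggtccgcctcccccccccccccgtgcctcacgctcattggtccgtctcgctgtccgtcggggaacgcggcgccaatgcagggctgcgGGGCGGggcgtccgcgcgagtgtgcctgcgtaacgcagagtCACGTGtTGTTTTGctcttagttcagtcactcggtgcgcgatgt

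None of the 6 motifs was found in the windows of Igfbp3 and Igfbp5. The Igfbp2 window held 3 GC boxes and 1 E-box, and the Igfbp7 window 4 GC boxes. The Igfbp4 window held 1 TATA box. The Irs1 window held 2 matches to TGTTTTG, the first sharing its opening bases with the E-box, and the Irs2 window 1 match that starts 1 base after an E-box. GC boxes were also found in the windows of Irs1 (2) and Irs2 (1). The Igf1r window held 2 GC boxes and 1 AGGTCA on the opposite strand. Among all 32851 promoter windows of this length, the TATA box was found in 12.37%, the GC box in 32.74%, the FOXO site in 3.166%, the insulin response core in 5.561%, the E-box in 6.021% and the nuclear receptor half-site in 14.02%. The FOXO site was in none of the 8 windows printed. A match describes the letters only and says nothing about binding. These windows were rich in G and C, from 58.8% in Igfbp5 to 77.6% in Igf1r, beside a median of 52.4% over all windows.

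Of the 9 genes tested, 7 changed between NSC and Astrocyte, beside 83.6% of all genes tested: 2 were higher (48.0% of all genes) and 5 lower (35.6%). Between NSC and Neuron 9 changed, beside 83.1% of all genes: 4 were higher (43.5%) and 5 lower (39.6%). Between NSC and Oligodendrocyte 8 changed, beside 80.2%: 3 were higher (48.1%) and 5 lower (32.2%). These shares were near the background, so the number of calls says nothing particular about the axis. Changes of at least 2-fold were found for 5 genes in Astrocyte (33.7% of all genes), 2 higher (21.4%) and 3 lower (12.3%). They were found for 4 genes in Neuron (31.8%), 1 higher (17.9%) and 3 lower (13.8%), and for 5 in Oligodendrocyte (32.0%), 2 higher (21.2%) and 3 lower (10.7%). The 3 comparisons share the NSC libraries. The tests used limma on log2(CPM + 1) with Benjamini-Hochberg adjustment over 13342 genes, and every fold change below is on that scale, which understates the change of low genes. The median gene moved by 0.15, 0.06 and 0.19 log2 units from NSC in Astrocyte, Neuron and Oligodendrocyte, and the median of the 9 axis genes by -0.67, -0.31 and -0.60.

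**Figure D1:**
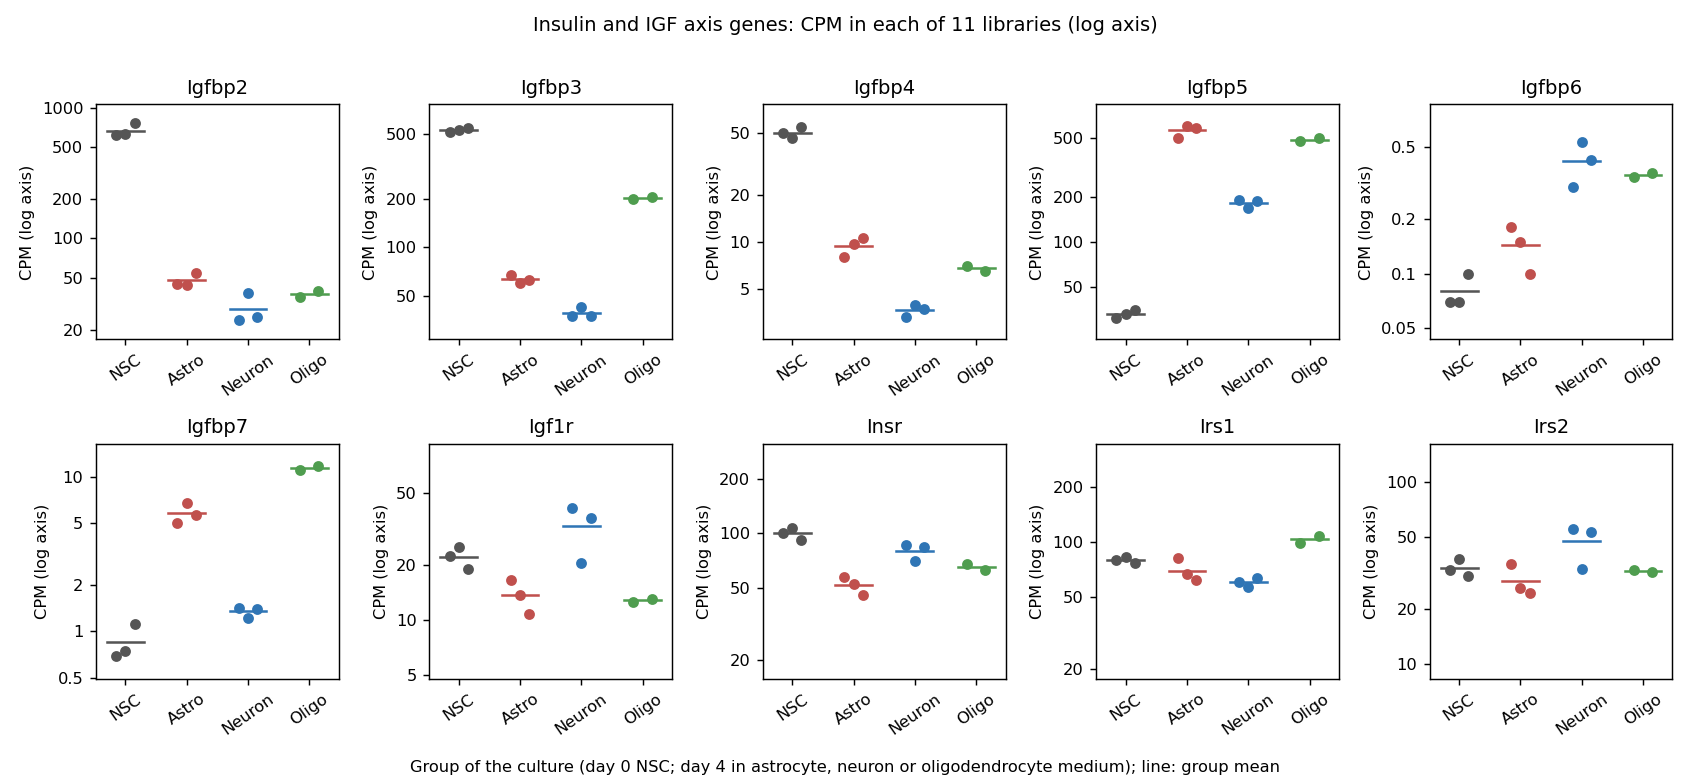
CPM of each gene in each library (vertical log axis, CPM) by group (horizontal axis), with points for libraries and lines for group means. Igfbp2, Igfbp3 and Igfbp4 were highest in the 3 NSC libraries, Igfbp5 and Igfbp7 were higher in every Astrocyte and Oligodendrocyte library than in any NSC library, and the receptors and substrates spanned a narrower range.

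The binding proteins showed the largest changes, and they split into genes that fell and genes that rose. Igfbp2, Igfbp3 and Igfbp4 fell in all 3 differentiation media, and Igfbp5 and Igfbp7 rose in all 3. Igfbp2 encodes a binding protein abundant in the fetal brain and in neural progenitors. Its level was 617, 629 and 762 CPM in the 3 NSC libraries. It was 44.9, 43.7 and 54.7 CPM in Astrocyte, 23.5, 38.1 and 24.8 CPM in Neuron, and 35.3 and 39.8 CPM in Oligodendrocyte. Every NSC library was above every day 4 library, and among the day 4 groups Neuron replicate 2 overlapped the Oligodendrocyte range. The fall was 13.8-fold in Astrocyte (log2 -3.78, SE 0.151, limma adjusted p = 2.68e-11), 22.9-fold in Neuron (log2 -4.52, adjusted p = 4.89e-12) and 17.3-fold in Oligodendrocyte (log2 -4.12, adjusted p = 5e-11).

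Igfbp2 was 1.67-fold higher in Astrocyte than in Neuron (limma adjusted p = 0.000848). Its Oligodendrocyte level lay close to both: the log2 difference was 0.40 from Neuron (adjusted p = 0.0491) and -0.33 from Astrocyte (adjusted p = 0.115, not called). The first of these calls was lost in 16 of 22 alternative analyses. It was lost without any one of NSC replicates 1 to 3 (adjusted p = 0.0591, 0.0582 and 0.0511), Neuron replicate 1 or 3 (log2 0.28 and 0.32, adjusted p = 0.163 and 0.153), Astrocyte replicate 1 or 2 (0.0572 and 0.0588) or Oligodendrocyte replicate 1 or 2 (0.0802 and 0.242). Without Neuron replicate 2, which had the highest Neuron value, the Igfbp2 level with T3 was 0.62 log2 units above Neuron (adjusted p = 7.8e-05), and the Oligodendrocyte against Astrocyte difference of -0.33 was called (adjusted p = 0.00731).

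Igfbp3, whose product is the main IGF carrier in blood together with the acid-labile subunit, was also high in NSC. It measured 517, 533 and 548.5 CPM in NSC, 66.9, 60.04 and 62.7 CPM in Astrocyte and 37.5, 42.7 and 37.4 CPM in Neuron. In Oligodendrocyte it measured 199.8 and 205.5 CPM. The 4 groups did not overlap, in the order NSC, Oligodendrocyte, Astrocyte, Neuron. The fall from NSC was 8.32-fold in Astrocyte (log2 -3.06, limma adjusted p = 7.09e-14) and 13.3-fold in Neuron (log2 -3.73, adjusted p = 1.63e-14). It was 2.62-fold in Oligodendrocyte (log2 -1.39, SE 0.0724, adjusted p = 5.84e-10). With T3 in the medium Igfbp3 was thus 5.08-fold higher than in the Neuron medium (log2 2.34, SE 0.0724, adjusted p = 3.35e-11), and it was 3.17-fold higher than in Astrocyte (adjusted p = 1.35e-09).

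Igfbp4, which encodes a binding protein that is cleaved by the protease PAPP-A, followed the order NSC, Astrocyte, Oligodendrocyte, Neuron. Its values were 49.6, 46.5 and 54.3 CPM in NSC and 8.0, 9.66 and 10.6 CPM in Astrocyte. They were 7.07 and 6.55 CPM in Oligodendrocyte and 3.33, 3.96 and 3.74 CPM in Neuron. No group overlapped another. The fall from NSC was 4.93-fold in Astrocyte, 6.54-fold in Oligodendrocyte and 10.9-fold in Neuron (limma adjusted p = 6.11e-11, 5.06e-11 and 1.16e-12). Compared with Neuron, Igfbp4 was 2.22-fold higher in Astrocyte (log2 1.15, SE 0.0997, adjusted p = 4.08e-07) and 1.67-fold higher in Oligodendrocyte (adjusted p = 5.93e-05). The smaller difference of -0.41 between Oligodendrocyte and Astrocyte (adjusted p = 0.00799) was not called without Oligodendrocyte replicate 2 (-0.36, adjusted p = 0.0735).

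Igfbp5, a binding protein that also attaches to extracellular matrix, moved the other way. NSC libraries held 31.0, 33.0 and 34.8 CPM. Astrocyte libraries held 499, 595 and 583 CPM, and Oligodendrocyte libraries 472 and 496 CPM. Neuron libraries held 190, 168 and 189 CPM, so that the group sat between NSC and the other media with no overlap. The rise was 16.5-fold in Astrocyte (log2 4.04, SE 0.0772, limma adjusted p = 3.38e-14), 14.3-fold in Oligodendrocyte (log2 3.84, adjusted p = 2.15e-13) and 5.40-fold in Neuron (log2 2.43, adjusted p = 2.86e-12). Compared with Neuron, Igfbp5 was 3.05-fold higher in Astrocyte (adjusted p = 1.79e-09) and 2.65-fold higher in Oligodendrocyte (adjusted p = 1.36e-08). Astrocyte and Oligodendrocyte lay next to each other, with a log2 difference of -0.20 (adjusted p = 0.0641, not called). That difference was called without Neuron replicate 2 (-0.20, adjusted p = 0.0242) or Astrocyte replicate 1 (-0.28, adjusted p = 0.0122). It was also called after median-of-ratios scaling (-0.25, adjusted p = 0.034) or quantile normalization (-0.21, adjusted p = 0.0378), and in both length slope alternatives given below.

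Igfbp2 and Igfbp5 are neighbours. In the authors' mm9 coordinates Igfbp2 spans chr1:72871077-72899048 on the plus strand and Igfbp5 chr1:72904506-72921458 on the minus strand, with 5457 bases between their ends and no gene listed between them. The pair changed in opposite directions in each of the 3 media. Igfbp3, at chr11:7106089-7113926, lies 3539 bases from Igfbp1, which was listed at 0 in all 11 libraries. Igfbp4, at chr11:98902558-98915706, lies 17054 bases from Top2a, a proliferation marker that fell from 731.2 ± 17.5 CPM in NSC (SD, n = 3) to 33.0 ± 1.42 in Astrocyte (SD, n = 3).

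Igfbp7, whose product binds IGFs weakly and insulin, and is secreted by vascular and other cells, rose from a low level. NSC libraries held 0.69, 0.75 and 1.11 CPM and Neuron libraries 1.42, 1.22 and 1.4 CPM. Astrocyte libraries held 5.03, 6.79 and 5.65 CPM and Oligodendrocyte libraries 11 and 11.6 CPM. No group overlapped another, and Oligodendrocyte was highest. The rise from NSC was 3.69-fold in Astrocyte and 6.69-fold in Oligodendrocyte (log2 1.88 and 2.74, limma adjusted p = 1.61e-09 and 1.31e-10). With T3 the gene was 5.25-fold higher than in the Neuron medium (log2 2.39, SE 0.124, adjusted p = 2.75e-09). The small Neuron difference from NSC (log2 0.35, adjusted p = 0.01) was not called without NSC replicate 1 (0.29, adjusted p = 0.0504) and took the opposite sign after quantile normalization (-0.14, adjusted p = 0.28).

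Igfbp7, at chr5:77778265-77837070, overlaps Polr2b on the opposite strand by 85 bases at its end. Whether the counting used strand is not given in the sources used here, so reads of the overlap cannot be assigned to either gene. The NSC libraries averaged 133.5 ± 3.87 CPM of Polr2b (SD, n = 3) and the Oligodendrocyte libraries 102.1 ± 0.347 (SD, n = 2). Those of Astrocyte averaged 97.02 ± 1.13 (SD, n = 3), those of Neuron 91.52 ± 1.64 (SD, n = 3). NSC was thus highest for Polr2b and lowest for Igfbp7, while the day 4 groups had the same order of means in both genes. The part of the overlap in the Igfbp7 level was not tested. Igfbp7 is a known product of blood vessel cells. The 7 endothelial markers summed to 3.16 to 3.47 CPM in NSC and 7.95 to 10.27 in Astrocyte. They summed to 2.98 to 4.97 in Neuron and 6.82 to 7.47 in Oligodendrocyte. Of these 7, 2 passed the filter. Both were called higher than in NSC in Astrocyte and in Oligodendrocyte, and 1 in Neuron. The shares of all genes called higher were 48.0%, 48.1% and 43.5%. The 7 pericyte and smooth muscle markers summed to 7.77 to 10.41 CPM in NSC, 82.5 to 91.2 in Astrocyte, 39.8 to 47.0 in Neuron and 18.9 to 19.6 in Oligodendrocyte. Of these 7, 3 passed the filter. Called higher than in NSC were 3 in Astrocyte, 1 in Oligodendrocyte and 2 in Neuron, beside 48.0%, 48.1% and 43.5% of all genes. In Neuron 1 was called lower (39.6% of all genes). Both sums were highest in Astrocyte, while Igfbp7 was highest in Oligodendrocyte. The part of such cells in the Igfbp7 level was not tested.

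Igfbp6, which encodes a binding protein that prefers IGF2, stayed under the filter of 1 CPM in at least 2 libraries. It was at 0.07, 0.07 and 0.1 CPM in NSC, 0.18, 0.15 and 0.1 in Astrocyte, 0.3, 0.53 and 0.42 in Neuron and 0.34 and 0.36 in Oligodendrocyte. These values stand for an estimated 4 to 28 reads per library. With no filter it was called higher in Neuron (log2 0.39, limma adjusted p = 8.15e-05) and in Oligodendrocyte (log2 0.32, adjusted p = 0.000759) than in NSC, and not in Astrocyte (log2 0.08, adjusted p = 0.219).

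Divided by exonic length, the 6 binding protein genes could be added up. Their sum was 550 ± 49.4 CPM per kb in NSC (SD, n = 3) and 146 ± 10.0 in Astrocyte (SD, n = 3). It was 60.8 ± 3.38 in Neuron (SD, n = 3) and 177 ± 6.15 in Oligodendrocyte (SD, n = 2). No group overlapped another. The make-up of the sum changed too: Igfbp2 made up 64.6% to 68.0% and Igfbp3 28.9% to 32.3% in the NSC libraries, where Igfbp5 made up 0.954% to 1.04%. Igfbp5 made up 61.6% to 66.1% in Astrocyte, 43.4% to 54.0% in Neuron and 45.6% in both Oligodendrocyte libraries. The Oligodendrocyte libraries differed from the others in Igfbp3, which made up 36.2% to 37.0% of their sum, beside 12.8% to 15.8% in Astrocyte and 20.2% to 21.1% in Neuron. The per-kb ratio of Igfbp5 to Igfbp2 went from 0.0140 to 0.0161 in NSC to 3.83 to 4.11 in Oligodendrocyte. The sum and the shares are descriptions with no test.

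**Figure D2:**
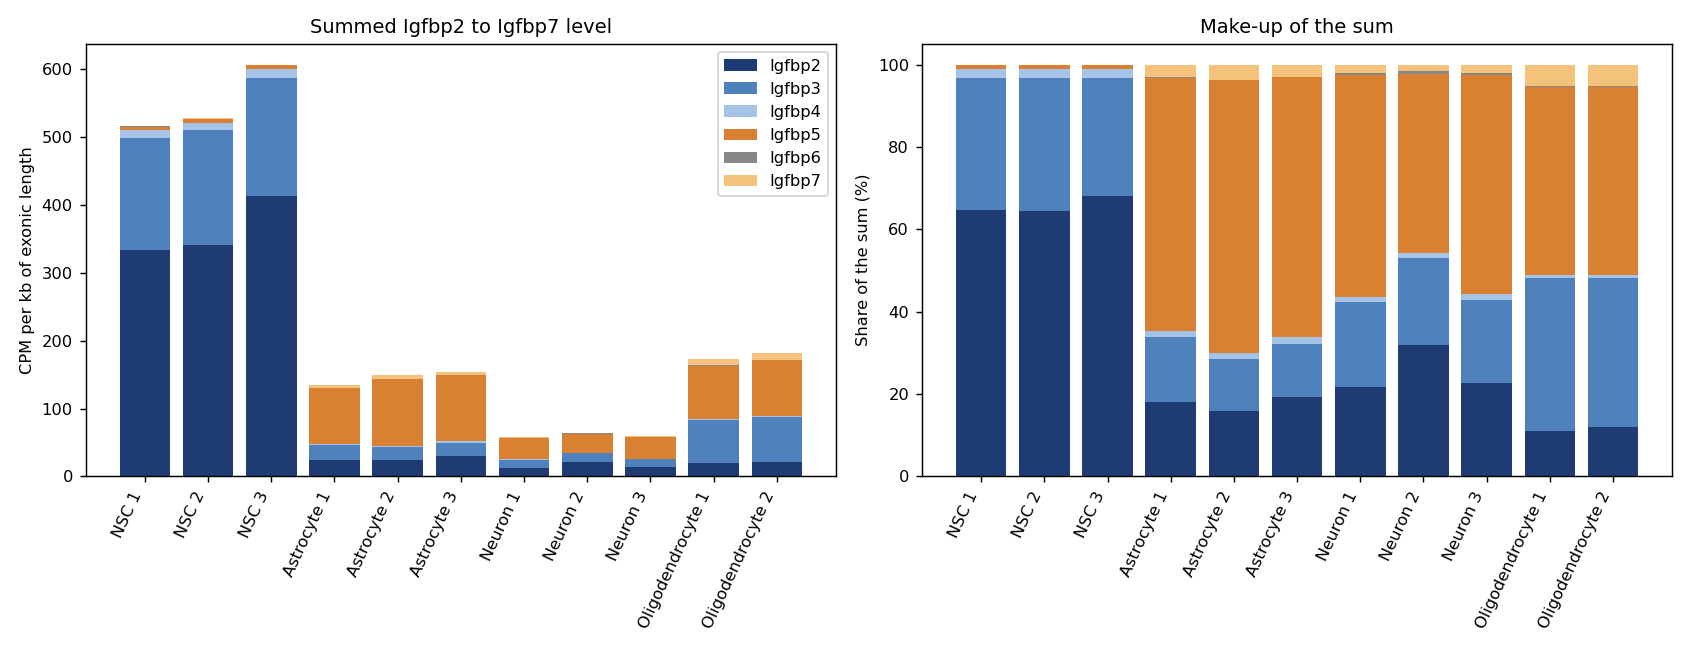
Summed level of Igfbp2 to Igfbp7 in each library (left, CPM per kb of exonic length) and the share of each gene in that sum (right, percent), with 1 bar per library. The sum is 516.3 to 606.9 in NSC and 58.5 to 181.3 at day 4, and the main gene changes from Igfbp2 to Igfbp5.

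The receptors moved much less than the binding proteins. Insr encodes the insulin receptor. It measured 100.8, 107.3 and 91.8 CPM in NSC, 85.9, 70.9 and 84.3 CPM in Neuron, 67.7 and 63.3 CPM in Oligodendrocyte, and 57.6, 52.6 and 46.0 CPM in Astrocyte. The groups did not overlap and kept that order. Against NSC, Insr fell 1.91-fold in Astrocyte (log2 -0.93, SE 0.0935, limma adjusted p = 4.91e-07), 1.52-fold in Oligodendrocyte (log2 -0.60, adjusted p = 0.000124) and 1.24-fold in Neuron (log2 -0.31, adjusted p = 0.0069). Astrocyte lay 1.53-fold below Neuron (adjusted p = 6.88e-05).

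The Insr differences of Oligodendrocyte from its neighbours were small. Against Neuron the log2 difference was -0.29 (limma adjusted p = 0.0266). It was not called without Neuron replicate 1 or 3 (adjusted p = 0.0808 and 0.0794) or with no filter (0.0608). Without Oligodendrocyte replicate 1 or 2, which leaves 1 library in that group, the difference was -0.34 and -0.24. Against Astrocyte the log2 difference was 0.33 (adjusted p = 0.0174), and it was not called without Astrocyte replicate 3 (0.25, adjusted p = 0.0671). Without Oligodendrocyte replicate 1 it was 0.28.

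Igf1r, the receptor for IGF1 and IGF2, was highest in Neuron and lowest in Astrocyte and Oligodendrocyte. It measured 22.6, 25.0 and 19.0 CPM in NSC and 41.0, 20.5 and 36.3 CPM in Neuron. It measured 16.6, 13.7 and 10.7 CPM in Astrocyte and 12.6 and 13 CPM in Oligodendrocyte. Astrocyte and Oligodendrocyte overlapped and lay below every NSC and Neuron library, while Neuron replicate 2 fell within the NSC range. Igf1r fell 1.59-fold in Astrocyte (log2 -0.67, SE 0.207, limma adjusted p = 0.00841) and 1.67-fold in Oligodendrocyte (log2 -0.74, SE 0.232, adjusted p = 0.0097). Compared with Neuron it was 2.23-fold lower in Astrocyte (log2 -1.16, adjusted p = 0.000284) and 2.34-fold lower in the same medium with T3 (log2 -1.23, adjusted p = 0.000395). Between Oligodendrocyte and Astrocyte the log2 difference was -0.07 (adjusted p = 0.822, not called). Without Oligodendrocyte replicate 1 the fall from NSC in Oligodendrocyte was -0.72 and was not called (adjusted p = 0.0534).

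The rise of Igf1r in Neuron over NSC (log2 0.49, limma adjusted p = 0.0428) depended on single libraries and on the settings of the fit. It was not called with no filter (adjusted p = 0.111), after median-of-ratios scaling (0.0539), with only the groups compared in the fit (0.0684) or with no trend (0.0513). Without Neuron replicate 2 it was 0.78 (adjusted p = 3.97e-05). It was not called without NSC replicate 1 or 3 (0.50 and 0.38, adjusted p = 0.0747 and 0.152), Neuron replicate 1 or 3 (0.30 and 0.38, adjusted p = 0.194 and 0.149), Astrocyte replicate 2 (0.49, adjusted p = 0.0556) or Oligodendrocyte replicate 1 or 2 (0.49 and 0.49, adjusted p = 0.0566 and 0.0566). On the per-kb scale Insr stood above Igf1r in every library, by a ratio of 5.25 to 5.90 in NSC, 4.24 to 5.23 in Astrocyte, 2.56 to 4.22 in Neuron and 5.94 to 6.56 in Oligodendrocyte.

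Both substrates of the receptors were well detected. Irs1 encodes the docking protein first found below the insulin receptor. It measured 79.3, 82.4 and 76.7 CPM in NSC, 81.1, 66.2 and 61.4 CPM in Astrocyte, 60.2, 56.6 and 63.1 CPM in Neuron, and 98.4 and 108.3 CPM in Oligodendrocyte. Both Oligodendrocyte libraries were above all others, and Astrocyte overlapped NSC and Neuron. Irs1 fell 1.32-fold in Neuron (log2 -0.40, SE 0.0891, limma adjusted p = 0.000886). It was 1.71-fold higher with T3 than in the Neuron medium (log2 0.77, SE 0.0996, adjusted p = 1.42e-05) and 1.49-fold higher than in Astrocyte (adjusted p = 0.000325).

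Irs1 was higher in Oligodendrocyte than in NSC (log2 0.37, limma adjusted p = 0.00359); after median-of-ratios scaling the difference was 0.17 (adjusted p = 0.0953, not called). The difference of Astrocyte from NSC was -0.20 (adjusted p = 0.052, not called). It was called without Neuron replicate 2 (-0.20, adjusted p = 0.0273) or Astrocyte replicate 1 (-0.31, adjusted p = 0.00157), and after median-of-ratios scaling (-0.36, adjusted p = 0.00121). Astrocyte against Neuron was 0.20 (adjusted p = 0.0638, not called) and was called without Astrocyte replicate 3 (0.29, adjusted p = 0.0147).

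Irs2, the docking protein prominent in insulin action in liver and beta cells, measured 32.8, 37.8 and 30.3 CPM in NSC and 35.3, 26.1 and 24.5 CPM in Astrocyte. It measured 54.8, 33.3 and 53.1 CPM in Neuron and 32.9 and 32.0 CPM in Oligodendrocyte. NSC, Astrocyte and Oligodendrocyte overlapped, and Neuron replicates 1 and 3 were above every other library. Irs2 was 1.60-fold lower in Astrocyte than in Neuron (log2 -0.68, SE 0.169, limma adjusted p = 0.00326). Against NSC the log2 difference was -0.24 in Astrocyte (adjusted p = 0.204) and -0.05 in Oligodendrocyte (adjusted p = 0.829), neither called. The Astrocyte difference was called without Neuron replicate 2 (-0.24, adjusted p = 0.0421) or Astrocyte replicate 1 (-0.39, adjusted p = 0.0483), and after median-of-ratios scaling (-0.39, adjusted p = 0.0337).

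The Irs2 rise in Neuron over NSC was 0.44 (limma adjusted p = 0.0263) and 0.67 without Neuron replicate 2 (adjusted p = 4.88e-05). It was not called without NSC replicate 1 or 3 (adjusted p = 0.0642 and 0.0966), without Neuron replicate 1 or 3 (0.112 and 0.111) or with no filter (0.0745). Irs2 was lower with T3 than in the Neuron medium by a log2 difference of -0.49 (adjusted p = 0.0346), or -0.72 without Neuron replicate 2 (adjusted p = 0.000106). That call was lost without Neuron replicate 1 or 3 (adjusted p = 0.115 and 0.117). It was also lost with no filter (0.0949) or with only the groups compared in the fit (0.0548). Without Oligodendrocyte replicate 1 or 2, which leaves 1 library in that group, the difference was -0.51 and -0.47. The per-kb ratio of Irs1 to Irs2 was 1.51 to 1.75 in NSC, 1.59 to 1.75 in Astrocyte, 0.760 to 1.18 in Neuron and 2.07 to 2.34 in Oligodendrocyte, with the last group above and the Neuron group below all other libraries.

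**Figure D3:**
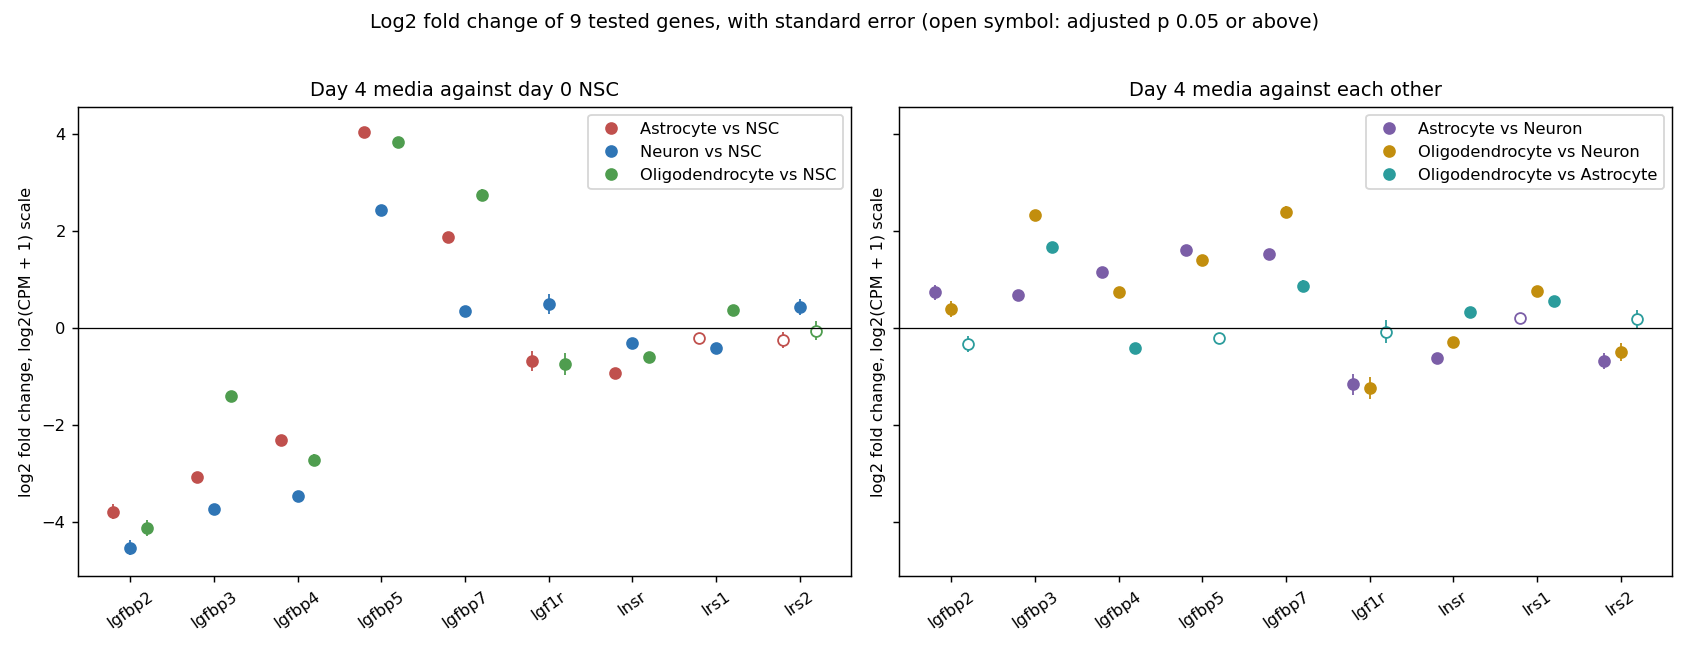
Log2 fold change (vertical axis, log2(CPM + 1) scale) of the 9 tested genes with the standard error of the limma fit, for the media against NSC (left) and against each other (right), with open symbols for differences not called. Igfbp5 reached 4.04 in Astrocyte and Igfbp2 -4.52 in Neuron, while the receptors and substrates lay between -1.23 and 0.77.

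Between the day 4 media, 8 of the 9 genes differed between Astrocyte and Neuron, beside 62.2% of all genes: 5 were higher in Astrocyte (40.3%) and 3 lower (22.0%). Between Oligodendrocyte and Neuron 9 differed, beside 67.5%: 6 were higher with T3 (43.9%) and 3 lower (23.6%). Between Oligodendrocyte and Astrocyte 5 differed, beside 52.2%: 4 were higher in Oligodendrocyte (28.7%) and 1 lower (23.5%). Differences of at least 2-fold were found for 4 genes between Astrocyte and Neuron (9.34% of all genes), 3 higher (6.39%) and 1 lower (2.95%). They were found for 4 genes between Oligodendrocyte and Neuron (12.5%), 3 higher (8.96%) and 1 lower (3.58%). Between Oligodendrocyte and Astrocyte only Igfbp3 differed by that much (1 of 9, beside 7.94% of all genes, with 4.53% higher and 3.41% lower). All 5 tested binding proteins were lowest in Neuron among the day 4 groups by their means. The 3 comparisons share libraries pairwise. The median gene moved by 0.10, 0.15 and 0.04 log2 units and the 9 genes by medians of 0.68, 0.74 and 0.19.

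The receptors and substrates have long transcripts, and their spread within groups moved with the length slope of the libraries. Exonic length was 16791 bases for Igf1r, 13746 for Insr, 9144 for Irs1 and 6323 for Irs2, and 1847 for Igfbp2. In the 3 groups of 3, the library of lowest slope was the lowest of its group for Igf1r, Insr, Irs1 and Irs2 in 3 of 3 groups. It was the highest of its group for Igfbp2 and Igfbp4 (4416 bases) in 3 of 3, and for Igfbp3 (3130 bases) in 2 of 3. For Igfbp5 (6006 bases) and Igfbp7 (1209 bases) it was the lowest in 1 group and the highest in 1. As a covariate, an alternative chosen after seeing the data, the slope was taken against the mean of all libraries, not of the own group. That slope ran from -0.0885 to 0.108 in Neuron and from -0.0787 to 0.0228 in NSC. It differed between groups, so the covariate can take up part of a group difference. With it, Igf1r in Neuron over NSC was 0.24 (limma adjusted p = 0.00206) and Irs2 was 0.25 (adjusted p = 0.00235). Igf1r in Oligodendrocyte against Neuron was -1.17 (adjusted p = 8.62e-12). With the 3 libraries left out the same values were 0.68 (adjusted p = 2.78e-06), 0.60 (adjusted p = 3.4e-05) and -1.52 (adjusted p = 2.96e-10). The directions held under both, and the size of the Neuron rises differed by more than 1.5 times between them. In either setting 8 of the 9 genes were called between Oligodendrocyte and Astrocyte, against 5 with all libraries and no covariate. The share of all genes called in that comparison was 64.3% with the covariate and 62.7% with the 3 libraries left out, against 52.2%.

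**Figure D4:**
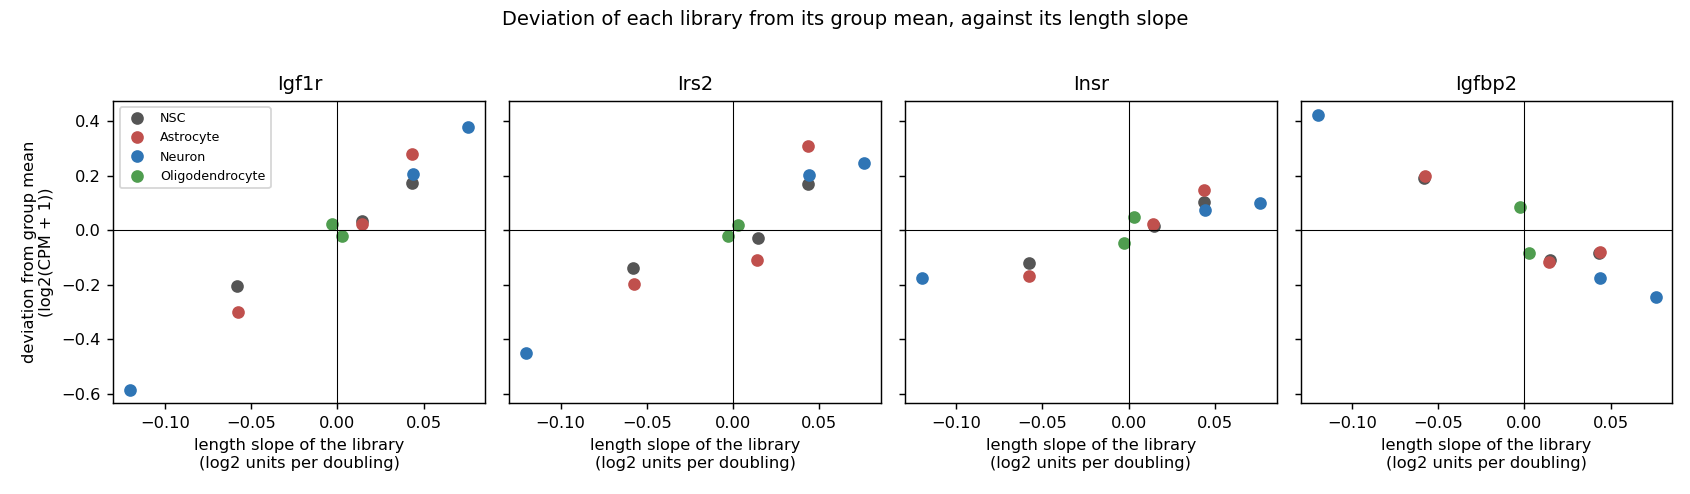
Deviation of each library from its group mean (vertical axis, log2(CPM + 1) units) against the length slope of the library (horizontal axis, log2 units per doubling of exonic length) for Igf1r, Irs2, Insr and Igfbp2, with 1 point per library. The library with a slope of -0.12, Neuron replicate 2, is the lowest point for Igf1r, Irs2 and Insr and the highest for Igfbp2.

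Across the 11 libraries, the levels of some pairs followed each other. Pearson's r on log2(CPM + 1) was 0.98 for Igfbp2 and Igfbp4, 0.90 for Igf1r and Irs2, -0.90 for Igfbp5 and Insr, and -0.853 for Igfbp2 and Igfbp5. The 11 points fall into the 4 groups and share the length slope, so these values describe the groups and carry no test. Among 9373 genes averaging 10 CPM or more, the closest in pattern were Uchl5 (r = 0.999) and Ranbp1 (0.997) for Igfbp2, Mthfd2 (0.997) and Spc25 (0.996) for Igfbp3, and Wdr70 (0.996) and Ahcy (0.996) for Igfbp4. Psd2 (0.998) was among the closest to Igfbp5. Ptprz1 (0.975) and Tcf4 (0.974) were closest to Igf1r, and Svil (0.992) and Lifr (0.985) to Insr. Trp53inp1 (0.976) and Eif5a2 (0.964) were closest to Irs1, and Zfp318 (0.954) and Zfp266 (0.952) to Irs2. Mthfd2, an enzyme of mitochondrial folate metabolism, showed the Igfbp3 order of groups, with means of 57.2, 16.2, 3.36 and 1.83 CPM in NSC, Oligodendrocyte, Astrocyte and Neuron.

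The wider pathway was followed through a list of 56 further genes, of which 46 passed the filter. In Astrocyte 20 were higher and 16 lower than in NSC, in Neuron 24 and 17, and in Oligodendrocyte 22 and 11. The total was 36, 41 and 33 of 46, beside 83.6%, 83.1% and 80.2% of all genes. Of the ligands, Ins1 was listed at 0 in all libraries and Ins2 was at most at a few reads. Igf1 had group means from 0.0867 CPM in Neuron to 0.727 CPM in Astrocyte and did not pass the filter. With no filter it was called higher than in NSC in Astrocyte (log2 0.63, limma adjusted p = 0.000296) and Oligodendrocyte (log2 0.55, adjusted p = 0.00178), and not in Neuron (log2 -0.04, adjusted p = 0.808). Igf2 was at 0.957 ± 0.119 CPM in NSC (SD, n = 3) and 0.28 ± 0.0819 in Astrocyte (SD, n = 3), a fall of 1.53-fold (limma adjusted p = 0.00132). In Oligodendrocyte it was at 0.72 and 1.8 CPM (log2 0.17, adjusted p = 0.348, not called), and without Oligodendrocyte replicate 1 it was called higher than in NSC (0.52, adjusted p = 0.00331). The RNA of all 4 ligands was thus under 2 CPM in every library.

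The second IGF2-binding receptor, Igf2r, which clears IGF2 and carries lysosomal enzymes, was at 66.1, 68.5 and 62.3 CPM in NSC. It fell 2.16-fold in Astrocyte, 2.72-fold in Neuron and by 0.58 log2 units in Oligodendrocyte (limma adjusted p = 1.13e-06, 7.48e-08 and 0.00133). It overlaps the antisense RNA Airn, whose reads cannot be separated without strand. The insulin receptor-related receptor gene Insrr was under 0.1 CPM in every library. Among other binding proteins, Igfbpl1, an IGFBP-like secreted protein, was at 2.55, 2.54 and 3.0 CPM in NSC and 42.7, 43.5 and 58.7 CPM in Astrocyte. This rise was 13.2-fold (log2 3.72, SE 0.128, adjusted p = 5.47e-12), against 2.43-fold in Neuron and 2.40-fold in Oligodendrocyte. Igfals, for the acid-labile subunit, had group means of at most 0.223 CPM.

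The RNA-binding proteins Igf2bp2 and Igf2bp3, fetal proteins that bind Igf2 and other mRNAs, fell in all 3 media. Igf2bp3 went from 73.1, 75.8 and 71.2 CPM in NSC to 8.32, 7.86 and 7.49 CPM in Astrocyte, 15.7, 14.99 and 16.5 CPM in Neuron and 9.81 and 9.39 CPM in Oligodendrocyte. The fall was 8.37-fold, 4.44-fold and 7.01-fold (limma adjusted p = 8.93e-14, 2.47e-12 and 8.84e-13). Igf2bp2 fell 4.69-fold, 4.99-fold and 5.12-fold, and Igf2bp1 was at most 0.09 CPM in any library. Of 3 tested genes for proteases that cut IGFBPs or for their inhibitors, the protease gene Htra1 rose 3.57-fold, 4.55-fold and 2.88-fold in Astrocyte, Neuron and Oligodendrocyte. Stc2, for a stanniocalcin that inhibits PAPP-A, fell 4.06-fold, 5.61-fold and 2.29-fold. Pappa, the gene for PAPP-A, and Pappa2 did not pass the filter on low values.

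The adaptors and receptor regulators were mixed: of 9 tested, 2 were higher and 4 lower in Astrocyte than in NSC, 4 and 5 in Neuron, and 3 and 3 in Oligodendrocyte. Over all genes tested the shares called higher and lower were 48.0% and 35.6%, 43.5% and 39.6%, and 48.1% and 32.2%. Gab1, for a docking protein related in function to the IRS proteins, rose in all 3 media by log2 0.87, 1.13 and 0.90 (limma adjusted p = 9.75e-08, 6.39e-09 and 2.81e-07). Ptpn1, for a phosphatase that acts on the insulin receptor, was lower in all 3, with log2 changes of -0.51, -0.99 and -0.48. Of the 16 genes of the PI3K, AKT and mTOR list, none changed 2-fold in Astrocyte or Neuron and 1 did in Oligodendrocyte, with 5 called higher and 6 lower in Astrocyte, 6 and 6 in Neuron, and 6 and 2 in Oligodendrocyte. Those shares of all genes apply here too, with 33.7%, 31.8% and 32.0% of all genes called at 2-fold or more. The median log2 changes of the 16 genes were -0.13, -0.02 and 0.15. Akt1, for the kinase itself, was lower in all 3 media (log2 -0.60, -0.69 and -0.57). Pik3r3, for a regulatory subunit of PI3-kinase, was 2.36-fold higher in Oligodendrocyte than in NSC (adjusted p = 3.16e-08).

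FOXO factors and the 9 genes listed as FOXO targets were mostly higher at day 4. Foxo1, Foxo3 and Foxo4, the transcription factors that insulin signalling restrains, were higher in all 3 media than in NSC. Foxo1 rose from 12.52 ± 0.892 CPM in NSC (SD, n = 3) to 48.5 ± 2.86 in Astrocyte (SD, n = 3), 29.5 ± 1.43 in Neuron (SD, n = 3) and 62.1 ± 1.62 in Oligodendrocyte (SD, n = 2), and no group overlapped another. The rise was 3.66-fold, 2.26-fold and 4.67-fold (limma adjusted p = 1.35e-11, 2.04e-09 and 1.11e-11). The Foxo4 rise in Oligodendrocyte was small (log2 0.23, adjusted p = 0.0139) and was not called without Oligodendrocyte replicate 1 (0.15, adjusted p = 0.176). Foxo6 stayed under 5 CPM in every group and was not called in Astrocyte or Neuron. Of the 4 FOXO factors, 3, 3 and 4 were thus called higher than in NSC in Astrocyte, Neuron and Oligodendrocyte. The shares of all genes called higher were 48.0%, 43.5% and 48.1%. Some alternative analyses called 1 of the 4 lower in Astrocyte or in Neuron.

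Of the 9 genes listed as FOXO targets, 8 rose in Astrocyte, 9 in Neuron and 7 in Oligodendrocyte, beside 48.0%, 43.5% and 48.1% of all genes called higher. The list is a selection of such targets and holds none of the 10 axis genes. Insr (log2 -0.93, -0.31 and -0.60 in the same order) and Irs2 (-0.24, 0.44 and -0.05) are thus not counted in it. The 1 called lower, in Oligodendrocyte, was Ccng2 (log2 -0.32), for an atypical cyclin, named here after its values were seen. The median log2 changes of the 9 genes were 1.15, 1.76 and 1.35, beside the all-gene medians given above. Txnip, for an inhibitor of glucose uptake and thioredoxin, went from 7.56, 7.41 and 9.57 CPM in NSC to 102.5, 99.1 and 92.2 CPM in Astrocyte, 143, 174 and 165 CPM in Neuron and 116.6 and 112.1 CPM in Oligodendrocyte. Pdk4, for a kinase that shuts pyruvate dehydrogenase, rose 10.6-fold, 16.9-fold and 8.80-fold in the same order. Pik3ip1, for an inhibitor of PI3-kinase, rose 10.3-fold, 13.4-fold and 4.03-fold. Sesn1, for a sestrin, rose 3.52-fold, 3.97-fold and 2.54-fold. Levels in Neuron were highest: 9 of the 9 were lower in Astrocyte than in Neuron and 8 of 9 lower in Oligodendrocyte than in Neuron, beside 22.0% and 23.6% of all genes. With the 3 libraries of lowest length slope left out these counts were 8 and 9. Many of these genes also respond to signals other than insulin, and protein activity was not measured.

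**Figure D5:**
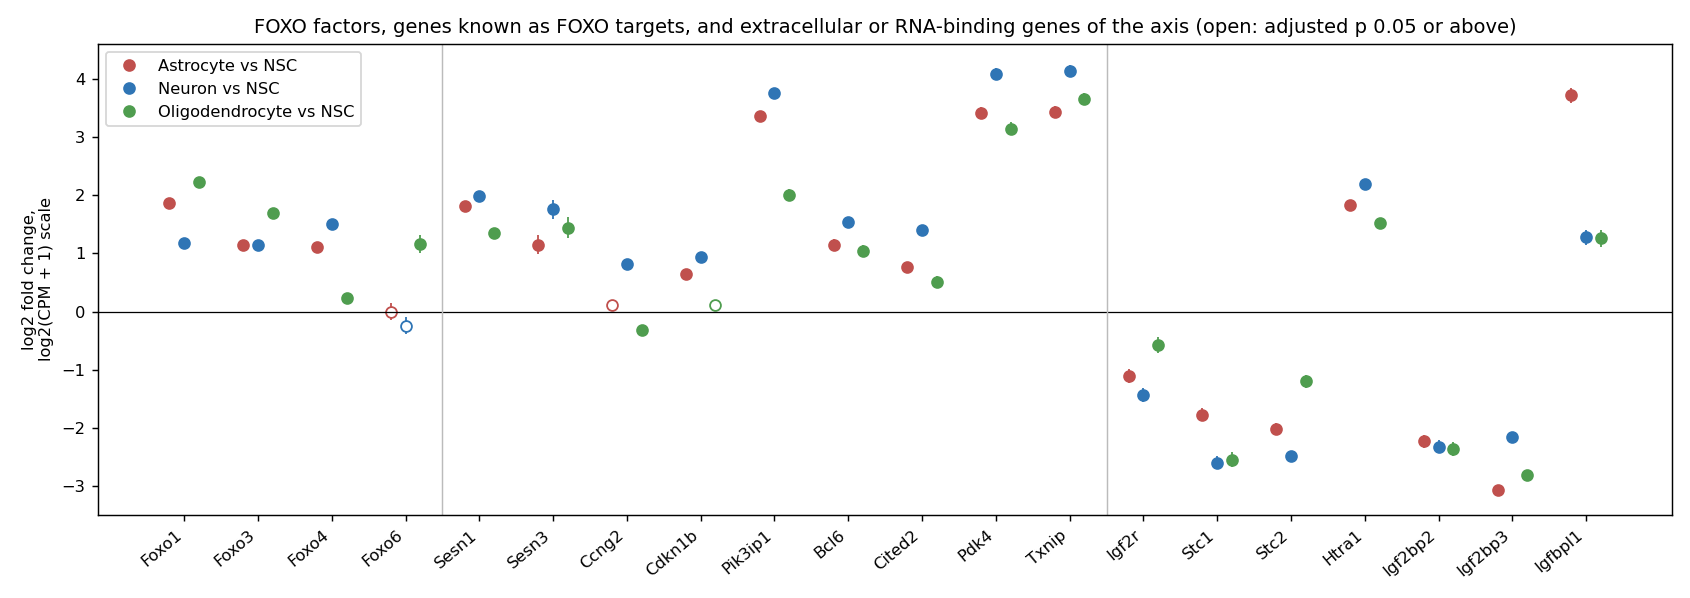
Log2 fold change from NSC (vertical axis, log2(CPM + 1) scale) with the standard error of the limma fit in the 3 media for the FOXO factors, the genes known as FOXO targets, and extracellular or RNA-binding genes of the axis, separated by vertical lines, with open symbols for differences not called. Txnip reached 4.14 in Neuron, and Igf2bp3 -3.06 in Astrocyte.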

How the data were processed

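Poly(A) RNA libraries (TruSeq Stranded mRNA, Illumina HiSeq) had been made from 11 cultures, per the labels' protocols. Deposited by the authors was one table, with CPM for 37991 genes rounded to 2 decimals and mm9 coordinates. The submitters' processing notes name bcl2fastq 1.8.4, TopHat2 2.0.8, HTSeq 0.6.1, edgeR 3.2.4, R 3.0.0, HOMER and build NCBIM37; which settings were used is not stated there. At a step estimated for each library, 100% of the deposited CPM values above 0 lay within rounding (0.005 CPM) of a whole number of reads, where 49.2% to 66.2% of all hundredths would; the tests used the CPM values as deposited, and no count model was fitted. Groups were taken from the labels, and 0 columns of per-sample values were left unused apart from the authors' means.

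A filter of 1 CPM or more in 2 or more libraries left 13342 genes, tested as log2(CPM + 1) with limma 3.58.1 in R 4.3.3 (all 11 libraries, 4 groups, 7 residual degrees of freedom, moderated two-sided test with trend). P-values were adjusted by Benjamini-Hochberg over all genes tested in each of 6 comparisons, with calls made below 0.05. Exonic lengths came from GENCODE M21, promoters from RefSeq. Named were the 10 genes; of the wider list, all ligands, other receptors, other binding proteins and Igf2bp genes, and up to 4 genes of every other sublist, those with the largest called change and a group mean of 10 CPM or more. The 2 genes of most similar pattern were named by Pearson's r. Some genes that these rules select are not reported here. The genes, lists and markers were chosen with earlier results of these data known. With 2 or 3 libraries per group, the smallest changes cannot be resolved.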

Additional observations from a re-analysis of the deposited data

Results flagged for a closer look

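Each of the following is a test of whether the change from NSC differed between media, for genes with a called difference between media that was at least 2-fold, or whose changes from NSC were both called and had opposite signs. The NSC libraries are shared, so each value is also the direct difference between the media, by limma with Benjamini-Hochberg adjustment.

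Igfbp3 differed by log2 2.34 between Oligodendrocyte and Neuron (adjusted p = 3.35e-11) and by 1.67 between Oligodendrocyte and Astrocyte (adjusted p = 1.35e-09). Igfbp4 differed by 1.15 between Astrocyte and Neuron (adjusted p = 4.08e-07). Igfbp5 differed by 1.61 between Astrocyte and Neuron and by 1.41 between Oligodendrocyte and Neuron. Igfbp7 differed by 1.53 and 2.39 in the same comparisons (adjusted p = 7.19e-08 and 2.75e-09).

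Igf1r moved in opposite directions from NSC, -0.67 in Astrocyte and -0.74 in Oligodendrocyte against 0.49 in Neuron. The differences were -1.16 (adjusted p = 0.000284) and -1.23 (adjusted p = 0.000395). The opposite direction rests on the Igf1r rise in Neuron (limma adjusted p = 0.0428). That call depended on single libraries and on the settings of the fit, and Neuron replicate 2 fell within the NSC range. Irs1 moved by 0.37 in Oligodendrocyte and -0.40 in Neuron, a difference of 0.77 (adjusted p = 1.42e-05). Groups of 2 or 3 libraries are too small for a test of single outlying libraries.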

How the results depend on the processing

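There were 22 alternatives (pseudocount, filter, scaling, trend, groups in the fit, each library left out, the replicate block and the length slope). Of 1188 values for the 9 tested genes, 1112 kept their side of the threshold, 50 lost the call, 25 gained it and 1 reversed. Reversed means a change of sign where either value was called. Differences called in neither fit could change sign and still count as kept. Igf1r in Oligodendrocyte against Astrocyte, at -0.07, ran from -0.28 to 0.07. Quantile normalization gave -0.14 for Igfbp7 in Neuron against NSC (limma adjusted p = 0.28). For the named wider genes 2809 of 2898 values held, 57 lost the call, 31 gained it and 1 reversed: Igf2 in Oligodendrocyte against NSC was -0.47 after quantile normalization (adjusted p = 0.0178). The cause was not tested in either case.

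Leaving out 1 library at a time, 7 to 9 of the 9 genes were called in Astrocyte against NSC, 6 to 9 in Neuron against NSC, 7 to 8 in Oligodendrocyte against NSC, 8 to 9 in Astrocyte against Neuron, 6 to 9 in Oligodendrocyte against Neuron and 4 to 7 in Oligodendrocyte against Astrocyte. For the wider genes the counts were 34 to 37, 39 to 42, 32 to 36, 31 to 36, 28 to 33 and 20 to 31 in the same order. In Oligodendrocyte against Astrocyte, 8 of the 9 genes were called with the length slope as a covariate, against 5 without. With the 3 libraries of lowest slope left out 8 were called. The shares of all genes called were 64.3% with the covariate and 62.7% with the libraries left out, against 52.2%. Both alternatives were chosen after seeing the data.

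Replicate numbers were not used to pair the samples. The correlation of deviations between same-numbered libraries of different groups ran from -0.506 to 0.415. Between libraries of different number it ran from -0.536 to 0.541. Deviations within so small a group are tied to each other and share the length slope. The correlations therefore cannot settle whether same-numbered libraries shared a preparation. With the replicate block, 7, 9, 8, 8, 9 and 5 of the 9 genes were called in the order above, the same numbers as without it, and 36, 43, 34, 35, 31 and 24 of the wider genes, against 36, 41, 33, 37, 30 and 26.

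Limits: groups hold 2 or 3 libraries, 1 read is worth 0.0151 to 0.0203 CPM, and Igfbp6, Igf1 and Igf2 rest on few reads. Called differences that were lost without 1 library were at most 0.49 log2 units in size for the 9 genes, apart from Igf1r in Oligodendrocyte against NSC (-0.74).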
